A study of Mus musculus with 30 samples.

Results

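The BCL2 family decides whether the outer membrane of mitochondria is opened, and 10 of its genes were followed here in mouse dendritic cells. They were taken by symbol from the table of read counts: Bcl2, Bcl2l1, Mcl1, Bcl2a1b and Bcl2a1d for survival, Bax and Bak1 as executioners, and Bcl2l11, Pmaip1 and Bbc3 as BH3-only death genes. All 10 of 10 symbols were found among 25611 rows, and all 10 passed the filter on low counts. Cells were grown from bone marrow for 6 to 7 days with the cytokine FLT3L at 200 ng/ml, from mice that were wild type (WT) or carried a Rubcn knockout (KO). Rubcn encodes Rubicon, a protein needed for LC3-associated phagocytosis, a non-canonical use of the autophagy machinery. Cells of each genotype were left untreated, fed ovalbumin protein (OVA) for 30 min or 4 h, or fed apoptotic Jurkat cells, which are human leukaemic T cells grown as a line, for the same times. This makes 10 groups of 3 libraries, and the study's title places the question in cross-presentation, the display of engulfed antigen on MHC class I. The labels give neither the part of Rubcn that was removed, nor the dose of OVA or of Jurkat cells, nor the agent that killed the Jurkat cells. They also give no time for untreated cells and name no mock-treated group. A change against untreated cells therefore cannot be told apart from one of time in culture or handling.

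In cells that carry both classes, BCL2, BCL-XL (from Bcl2l1), MCL1 and the proteins of the Bcl2a1 genes hold back BAX and BAK, which otherwise form pores in mitochondria and release cytochrome c. BH3-only proteins such as BIM (from Bcl2l11), NOXA (from Pmaip1) and PUMA (from Bbc3) bind the survival proteins and free the executioners. Activated dendritic cells are short-lived, and their lifespan is known to depend on this balance.

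Levels are given in CPM, read counts scaled to the TMM-adjusted size of each library, as single libraries or as mean ± SD with n = 3. A gene was called higher or lower when edgeR's quasi-likelihood test gave a Benjamini-Hochberg adjusted p (FDR) under 0.05 over the 14808 genes tested, and log2 fold changes are printed ± their standard error. Total counts ran from 9.73 M (KO, OVA 30 min, replicate 3) to 51.6 M per library, with a median of 44.9 M. The titles number the libraries but do not say that they came from separate mice, so p-values measure the spread between libraries only. Rubcn itself was at 95.6, 96.6 and 105 CPM in untreated WT libraries and 70.4, 72.2 and 75.8 in untreated KO libraries, a log2 fold change of -0.44 ± 0.047 with an edgeR FDR of 1.69e-07. All 11 markers of conventional dendritic cells that were checked had counts in every group, and their summed level was 14805 to 17159 CPM in untreated WT libraries. The listed plasmacytoid dendritic cell, monocyte or macrophage, neutrophil, basophil or mast cell, B cell and stromal markers also had counts in every group. Having counts therefore does not set the cell type.

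Bcl2a1b and Bcl2a1d are near-identical copies, together with Bcl2a1a, which is in the table but is not one of the 10 genes. Their coding sequences are shown first because the split of reads between copies rests on the few bases that differ. Each has 516 coding bases, and Bcl2a1b and Bcl2a1d share 98.8% of them, Bcl2a1a and Bcl2a1d 98.6%, and Bcl2a1a and Bcl2a1b 97.9%. Of the 12 positions that differ among the 3 copies, 7 fall in the first 120 coding bases, which are printed 5′ to 3′ with the differing positions in capitals. They lie in the first coding exon at chr9:88957051-88957170 (+ strand) for Bcl2a1a, chr9:89199360-89199479 (+ strand) for Bcl2a1b and chr9:88731600-88731719 (- strand) for Bcl2a1d, on GRCm38 in GENCODE M21.
Bcl2a1a: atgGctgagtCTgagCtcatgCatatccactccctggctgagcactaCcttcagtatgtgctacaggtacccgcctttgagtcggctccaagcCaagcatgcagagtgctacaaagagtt
Bcl2a1b: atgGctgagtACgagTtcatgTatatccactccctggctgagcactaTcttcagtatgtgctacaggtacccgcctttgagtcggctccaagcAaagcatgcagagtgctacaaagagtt
Bcl2a1d: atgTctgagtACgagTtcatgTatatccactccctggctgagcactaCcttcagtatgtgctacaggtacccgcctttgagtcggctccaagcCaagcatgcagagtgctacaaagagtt
A stretch of 75 bases drawn from the transcript was absent from the other copies at 56.5% of positions for Bcl2a1b and at 32.4% for Bcl2a1d. Read length and the handling of reads that fit several copies go unstated in the labels and processing notes. The counts of single copies are therefore uncertain, and the sum over the copies is given beside them.

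At rest the family was led by Mcl1. To compare genes, CPM was divided by the length of the annotated exons, and on that scale of CPM per kilobase untreated WT cells had 221 ± 6.79 for Mcl1. Bax at 57.5 ± 3.45, Bak1 at 43.2 ± 2.21 and Pmaip1 at 36.1 ± 2.72 CPM per kilobase came next. Bcl2a1b followed at 22.1 ± 2.29 and Bbc3 at 16.0 ± 0.210. Bcl2a1d at 9.64 ± 0.431, Bcl2 at 7.72 ± 0.473, Bcl2l11 at 6.50 ± 0.202 and Bcl2l1 at 3.74 ± 0.101 CPM per kilobase were the lowest. No ranges of neighbours in this order overlapped between libraries, and untreated KO cells had the same order with Mcl1 at 209 ± 2.41 and Bcl2l1 at 4.61 ± 0.600. The order depends on the exon length taken, and ranges between libraries do not cover an error in that length. In CPM not divided by length, untreated WT cells had 70.7 for Bcl2 and 52.2 for Bcl2l11. Those levels were above 33.9 for Bbc3 and 18.1 for Bcl2a1b.

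After 4 h with apoptotic Jurkat cells the order changed. Bcl2a1b stood first at 671 ± 35.4 CPM per kilobase in WT cells, ahead of Mcl1 at 384 ± 11.1, Bcl2a1d at 290.1 ± 12.2 and Pmaip1 at 220.4 ± 7.66. Bcl2 was last at 5.23 ± 0.0831, below Bbc3 at 13.5 ± 1.24 CPM per kilobase. This order also depends on the exon lengths. In CPM not divided by length, Mcl1 was highest at 1312, above Pmaip1 at 602 and Bcl2a1b at 548. Bbc3 was then lowest at 28.6, below Bcl2 at 47.9. In this bulk RNA a change in the number of cells of a type and a change in RNA per cell cannot be told apart. Markers of several cell types moved with this treatment in WT cells. The summed level of 11 conventional dendritic cell markers went from 16051 ± 1183 CPM untreated to 27328 ± 918, with 5 higher and 6 lower. That of 10 plasmacytoid dendritic cell markers went from 3180.1 ± 32.8 to 4450.1 ± 406, with 6 higher and 4 lower, and that of 8 stromal markers from 586 ± 40.4 to 862 ± 67.1, with 7 higher. Monocyte or macrophage markers summed to 1864 ± 123 and 1680.1 ± 132 CPM, with 5 of 8 higher and 2 lower, and neutrophil markers to 148 ± 11.0 and 149 ± 3.46, with 2 of 9 higher and 3 lower. Their part in the changes of the 10 genes was not tested.

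**Figure D1:**
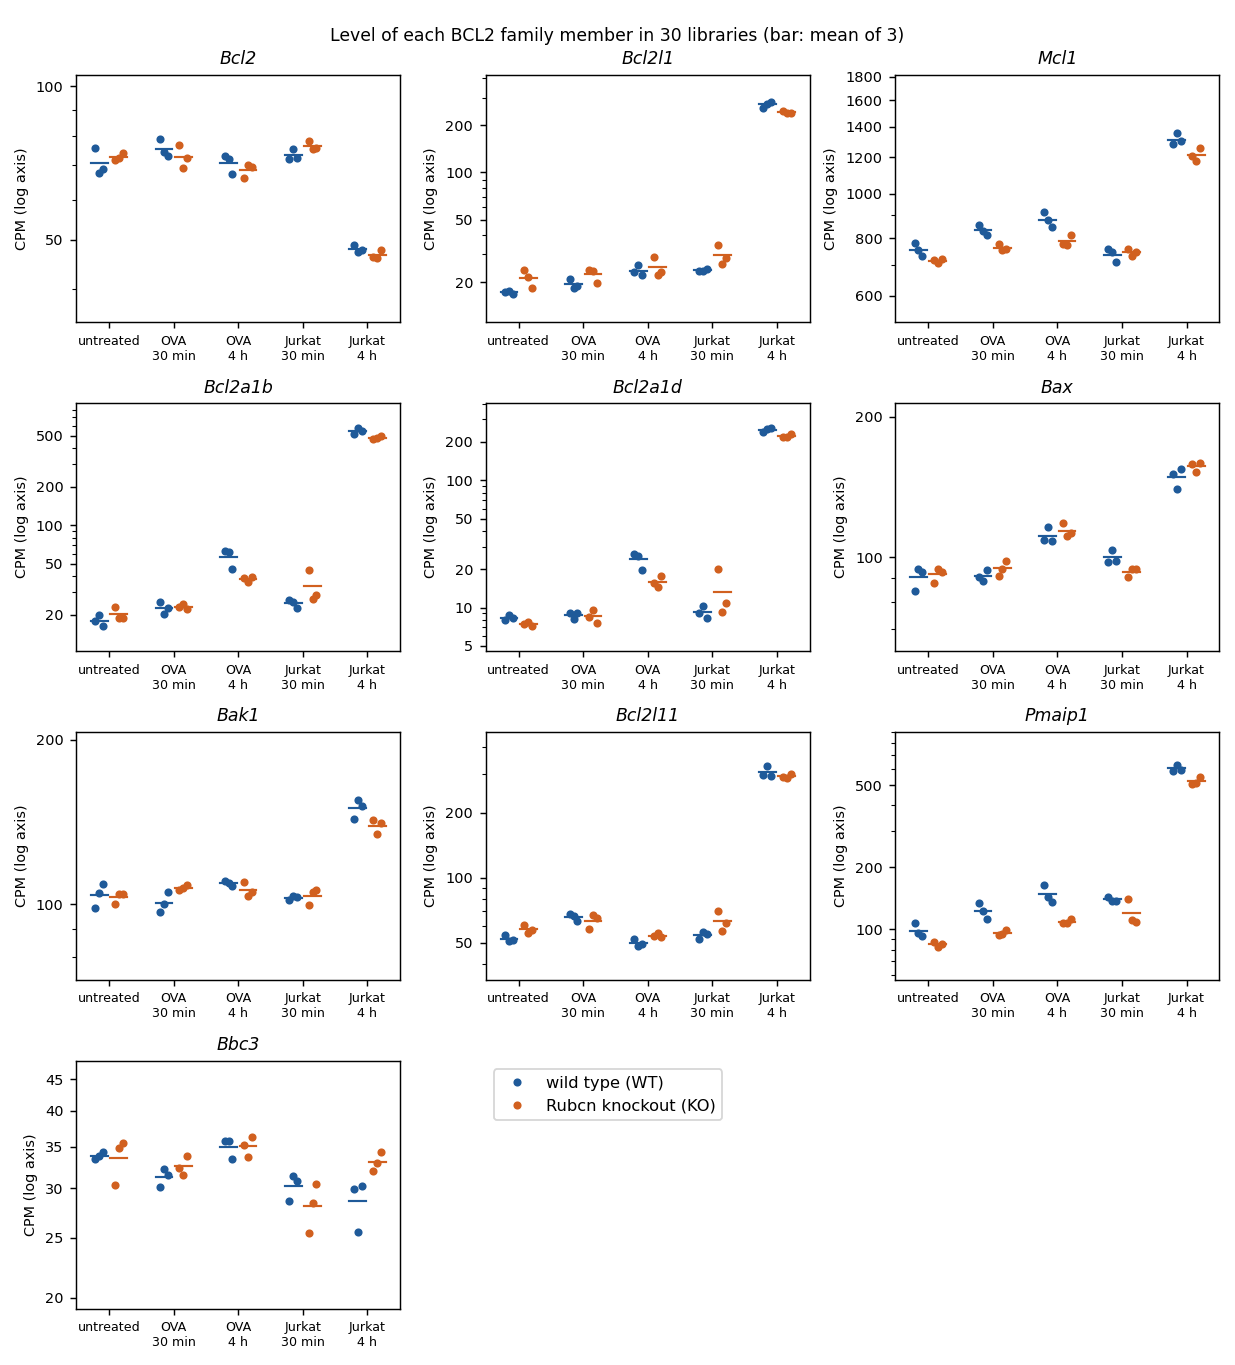
CPM of each gene (log axis, one panel per gene) in the 30 libraries, by treatment on the horizontal axis, with WT in blue and KO in orange; each point is a library and each bar the mean of 3. In the 4 h Jurkat groups, 8 genes lie above their untreated libraries in both genotypes, Bcl2 lies below them, and Bbc3 lies below them in WT cells.

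All 10 genes changed in WT cells after 4 h with apoptotic Jurkat cells: 8 were higher and Bcl2 and Bbc3 were lower. Of all genes tested 79.5% were called in that comparison, and 38.9% were called higher. In KO cells 9 of 10 changed, 8 higher and Bcl2 lower, against 78.5% of all genes called and 37.5% called higher. The share of the 10 genes called was therefore near that of all genes at this time. The median log2 fold change, taken with its sign, was 1.68 for the 10 genes in WT and 1.56 in KO cells. Over all genes, where rises and falls offset each other, it was -0.02 and -0.03. The size of change without its sign was not compared. After 4 h of OVA, 6 of 10 were higher in WT cells, against 23.5% of all genes called and 11.9% called higher. In KO cells 5 of 10 were higher, against 11.6% called and 5.94% called higher. Within 30 min of OVA, 3 of 10 were higher in WT cells, against 10.7% called and 5.51% called higher. In KO cells edgeR called none, against 3.77%. In that KO comparison 3 of 10 had an unadjusted p under 0.05, DESeq2 also called none, and an edgeR fit of the compared groups alone called Pmaip1. The share of all genes under that unadjusted p was not computed. Within 30 min of Jurkat cells, 4 of 10 were higher in WT cells, against 28.7% called and 14.2% called higher. In KO cells 4 were higher and Bbc3 lower, against 17% called and 8.72% called higher. The 4 comparisons within a genotype share that genotype's untreated libraries.

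**Figure D2:**
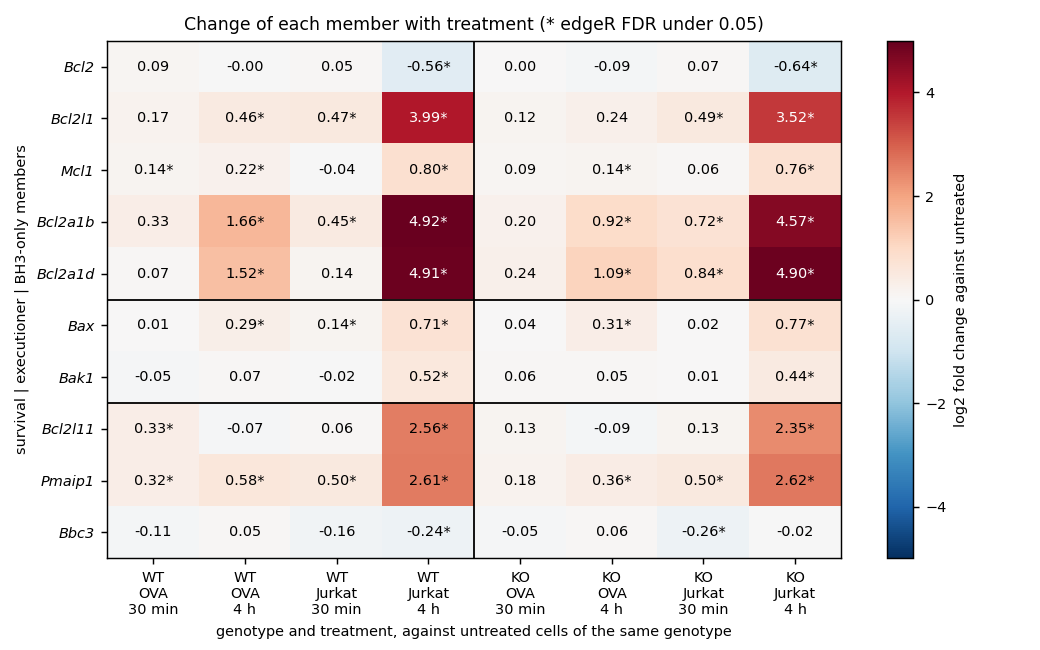
Log2 fold change of each gene (rows, ordered as survival, executioner and BH3-only genes) in each treatment against untreated cells of the same genotype (columns), with an asterisk where the edgeR FDR was under 0.05. The 4 h Jurkat columns hold the strongest changes, up to 4.92 for Bcl2a1b in WT cells. After 4 h of OVA, Bcl2a1b was higher by 1.66 and Bcl2a1d by 1.52 in WT cells.

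The Bcl2a1 genes rose most of the 10 after 4 h of Jurkat cells. They encode survival proteins that are known in leukocytes as early targets of inflammatory signals. Gene positions are those of the deposited table, on mm10, where Bcl2a1b lies at chr9:89199273-89207838 (+ strand) and Bcl2a1d at chr9:88723288-88731850 (- strand). Bcl2a1b was at 17.9, 20.01 and 16.3 CPM in untreated WT libraries, 63.2, 62.3 and 46.0 after 4 h of OVA and 519, 577 and 548 after 4 h of Jurkat cells. No libraries overlapped between these groups, and the log2 fold changes against untreated cells were 1.66 ± 0.13 and 4.92 ± 0.14 (edgeR FDR 1.72e-10 and 6.04e-23). In KO libraries Bcl2a1b was at 23.1, 19.0 and 18.8 CPM untreated, 38.96, 36.5 and 39.7 after 4 h of OVA and 476, 478 and 496 after 4 h of Jurkat cells, again without overlap. The KO log2 fold changes were 0.92 ± 0.13 and 4.57 ± 0.14.

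Bcl2a1d ran at a lower level, with the same order of the untreated, 4 h OVA and 4 h Jurkat groups within each genotype. It was at 7.97, 8.71 and 8.29 CPM in untreated WT libraries, 26.5, 25.6 and 19.6 after 4 h of OVA and 238, 255 and 258 after 4 h of Jurkat cells, so the groups were apart. Its log2 fold changes were 1.52 ± 0.16 with OVA and 4.91 ± 0.16 with Jurkat cells at 4 h in WT cells, and 1.09 ± 0.17 and 4.90 ± 0.16 in KO cells. The ratio of Bcl2a1b to Bcl2a1d per kilobase was 2.29 ± 0.187 in untreated WT cells, 2.85 ± 0.246 after 30 min and 2.31 ± 0.0725 after 4 h of Jurkat cells, and 2.74 ± 0.146 and 2.52 ± 0.0475 at the same times of OVA. In KO cells it was 2.89 ± 0.343 untreated, 2.75 ± 0.327 and 2.30 ± 0.0217 with Jurkat cells, and 2.88 ± 0.215 and 2.56 ± 0.155 with OVA. Bcl2a1a, the third copy, went from 1.60 ± 0.0971 to 59.8 ± 2.26 CPM in WT cells. With the counts of Bcl2a1a, Bcl2a1b, Bcl2a1c and Bcl2a1d added into 1 row, the WT log2 fold changes were 1.64 with OVA and 4.94 with Jurkat cells at 4 h, and those of KO cells 0.995 and 4.71.

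At 30 min the Bcl2a1 genes moved by less. Bcl2a1b was at 26.3, 25.2 and 22.8 CPM in WT libraries after 30 min of Jurkat cells, a log2 fold change of 0.45 ± 0.14 with an edgeR FDR of 0.0144. That call was lost without WT Jurkat 30 min replicate 1 (FDR 0.0632), without WT untreated replicate 3 (FDR 0.0789) and with the copies summed (FDR 0.0509). In KO libraries Bcl2a1b was at 45.0, 26.5 and 28.9 and Bcl2a1d at 19.9, 9.24 and 10.8 CPM after 30 min of Jurkat cells, with replicate 1 well above the other two for both genes. The KO log2 fold changes of 0.72 and 0.84 fell to 0.45 and 0.43 without that library, with edgeR FDRs of 0.00621 and 0.0126. Bcl2a1d in a fit of the compared groups alone had an FDR of 0.0567.

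The counts of both genes moved together, and the part in this of reads that fit several copies was not tested. The stretches upstream of both genes are shown for comparison. They are the RefSeq promoter sequences on GRCm38.p6 up to the first exon in GENCODE M21, which starts 64 bases ahead of the gene in the deposited table. They are 186 bases each, at chr9:89199023-89199208 (+ strand) for Bcl2a1b and chr9:88731915-88732100 (- strand) for Bcl2a1d. Capitals mark the bases that differ between the copies where the sequences overlap, including a run of 6 bases that the Bcl2a1d stretch lacks. The base of Bcl2a1d opposite the last capital of Bcl2a1b falls beyond the stretch shown.
Bcl2a1b: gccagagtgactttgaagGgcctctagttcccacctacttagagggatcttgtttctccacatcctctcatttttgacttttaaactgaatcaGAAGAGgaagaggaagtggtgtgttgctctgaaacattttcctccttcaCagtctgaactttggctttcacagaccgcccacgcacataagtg
Bcl2a1d: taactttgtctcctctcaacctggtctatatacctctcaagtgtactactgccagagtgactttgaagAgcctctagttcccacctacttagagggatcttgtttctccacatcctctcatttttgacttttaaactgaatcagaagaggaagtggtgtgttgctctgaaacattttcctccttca
Over the 206 positions where the full 250-base promoters overlap, 96.1% were identical. A search of both strands found none of 4 motifs in them: the kappaB motif of NF-kB, the p53 half-site, the FOXO motif TGTTTAC and the CRE half-site TGACGT. Among 32536 promoters of the same length, 7.28% held the kappaB motif, 7.12% the p53 half-site, 3.17% TGTTTAC and 6.50% TGACGT. The kappaB motif was found at 1 of the 3 annotated Bcl2l1 promoters and, as 2 overlapping matches, at 1 of 3 Bbc3 promoters, TGACGT at Bcl2, TGTTTAC at 1 promoter each of Bcl2l11 and Bbc3, the p53 half-site at Bax, and none of the 4 at Mcl1 or Bak1. Pmaip1 was not searched.

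Bcl2l1, the gene of BCL-XL, was the lowest of the 10 per kilobase at rest and rose next after the Bcl2a1 genes. It lies at chr2:152758732-152831728 (- strand). It was at 17.3, 17.6 and 16.7 CPM in untreated WT libraries and at 259, 275 and 282 after 4 h of Jurkat cells, a 15.8-fold rise (log2 3.99 ± 0.094, edgeR FDR 6.76e-25). In KO libraries it went from 23.7, 21.4 and 18.2 to 248, 239.7 and 240.5 CPM, an 11.5-fold rise (log2 3.52 ± 0.091). Neither pair of groups overlapped. The smaller WT rises after 30 min of Jurkat cells (0.47 ± 0.096) and 4 h of OVA (0.46 ± 0.096) also passed the test, as did the KO rise after 30 min of Jurkat cells (0.49 ± 0.092). The KO value after 4 h of OVA, 0.24 ± 0.094, did not (edgeR FDR 0.102).

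Mcl1, whose protein turns over quickly and is needed by many blood cells, changed less in relative terms from a high level. The gene lies at chr3:95658721-95663178 (+ strand). It was at 779, 753 and 733 CPM in untreated WT libraries, 912, 876 and 844 after 4 h of OVA and 1280.2, 1354 and 1302 after 4 h of Jurkat cells. The log2 fold changes were 0.22 ± 0.036 and 0.80 ± 0.036 without overlap (edgeR FDR 4.68e-05 and 3.91e-18). After 30 min of Jurkat cells WT libraries had 756, 745 and 709 CPM, within the untreated range apart from 1 library, and the log2 value of -0.04 ± 0.036 did not pass. KO cells rose by 0.76 ± 0.036 at 4 h of Jurkat cells and 0.14 ± 0.036 at 4 h of OVA, the last of which lost its call without KO OVA 4 h replicate 3 (edgeR FDR 0.0734). The WT rise at 30 min of OVA, 0.14 ± 0.036, lost its call without WT OVA 30 min replicate 1 (FDR 0.0776), without WT untreated replicate 3 (FDR 0.0758) and in a fit of the compared groups alone (FDR 0.104).

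Bcl2 itself, at chr1:106538176-106714290 (- strand), fell after 4 h of Jurkat cells. WT libraries were at 75.7, 67.6 and 68.9 CPM untreated and 48.7, 47.2 and 47.8 after 4 h of Jurkat cells, and KO libraries at 71.8, 72.3 and 74.2 and 46.4, 46.1 and 47.8. No libraries overlapped, and the log2 fold changes were -0.56 ± 0.045 in WT and -0.64 ± 0.044 in KO cells (edgeR FDR 1.98e-12 and 9.94e-14). In the other 6 treatment comparisons its log2 values lay between -0.09 and 0.09 and none was called.

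Both executioners rose after 4 h of Jurkat cells, and Bax also after 4 h of OVA. Bax lies at chr7:45461695-45466898 (- strand) and Bak1 at chr17:27019812-27028627 (- strand). Bax, whose protein moves to mitochondria from the cytosol, was at 84.4, 94.5 and 92.9 CPM in untreated WT libraries, 109, 116 and 108 after 4 h of OVA and 151, 139.8 and 155 after 4 h of Jurkat cells. Its log2 fold changes were 0.29 ± 0.045 and 0.71 ± 0.045 in WT cells and 0.31 ± 0.045 and 0.77 ± 0.045 in KO cells, all called and none with overlapping libraries. Bak1, whose protein sits on mitochondria already, was at 98.4, 105 and 109 CPM untreated and 143, 155 and 151 after 4 h of Jurkat cells in WT libraries. It rose by 0.52 ± 0.039 in WT and 0.44 ± 0.039 in KO cells after Jurkat cells (edgeR FDR 5.56e-13 and 3.52e-11), and after 4 h of OVA its log2 values of 0.07 ± 0.039 and 0.05 ± 0.039 were not called. The small WT rise of Bax at 30 min of Jurkat cells, 0.14 ± 0.045, was lost without WT Jurkat 30 min replicate 2 (0.11, FDR 0.110) or WT untreated replicate 1 (0.09, FDR 0.149), and in a fit of the compared groups alone (FDR 0.0705).

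The 3 BH3-only genes followed different courses. Pmaip1, the gene of NOXA, which binds MCL1 and the Bcl2a1 proteins, was at 107, 95.7 and 93.3 CPM in untreated WT libraries, 165, 143 and 136 after 4 h of OVA and 588, 626 and 592 after 4 h of Jurkat cells. It rose by 0.58 ± 0.075 with OVA and 2.61 ± 0.078 with Jurkat cells at 4 h, and by 0.50 ± 0.075 after 30 min of Jurkat cells, all without overlap. KO libraries went from 87.4, 82.1 and 85.03 CPM untreated to 108, 107 and 112 with OVA and 506, 512 and 546 with Jurkat cells at 4 h, rises of 0.36 ± 0.076 and 2.62 ± 0.079. Against untreated cells Pmaip1 was thus called in both genotypes at 4 h with either treatment and at 30 min with Jurkat cells. Its WT rise at 30 min of OVA, 0.32 ± 0.075, lost the call without WT OVA 30 min replicate 1 (edgeR FDR 0.0587).

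Bcl2l11, the gene of BIM, which binds all the survival proteins, lies at chr2:128126038-128162547 (+ strand). In WT libraries it was at 54.0, 50.9 and 51.6 CPM untreated, 67.7, 66.4 and 63.1 after 30 min of OVA and 51.8, 48.2 and 49.5 after 4 h of OVA. The 30 min libraries lay above both other groups, with a log2 fold change of 0.33 ± 0.060 against untreated cells (edgeR FDR 0.000458) and -0.40 ± 0.060 from 30 min to 4 h (FDR 8.96e-06). After 4 h of Jurkat cells it was at 298, 328 and 296 CPM in WT and 292, 289 and 301 in KO libraries, rises of 2.56 ± 0.061 and 2.35 ± 0.060. The KO value at 30 min of OVA, 0.13 ± 0.061, was not called, and the difference between genotypes in that response was -0.20 ± 0.086 (edgeR FDR 0.894).

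Bbc3, the gene of PUMA at chr7:16309583-16318334 (+ strand), stayed within a narrow band. Its 30 libraries ran from 25.4 to 36.3 CPM. WT libraries were at 33.5, 33.9 and 34.3 CPM untreated and 29.9, 25.6 and 30.3 after 4 h of Jurkat cells, a log2 fold change of -0.24 ± 0.064 without overlap (edgeR FDR 0.00110). KO libraries were at 32.0, 33.0 and 34.4 CPM at the same time, within the untreated range, and the value of -0.02 ± 0.063 was not called (FDR 0.775). The KO fall at 30 min of Jurkat cells, -0.26 ± 0.063, had 1 library overlapping the untreated ones and lost its call without KO Jurkat 30 min replicate 1 (FDR 0.0567) and in a fit of the compared groups alone (FDR 0.0675).

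Scaling bears on the modest changes at 4 h of Jurkat cells. TMM factors were 0.765 to 0.842 in those 6 libraries and 1.03 to 1.07 in the others, and scaling to total counts instead moved the median of all genes to -0.42 in WT and -0.37 in KO cells. On that scale the WT log2 fold changes were 0.39 for Mcl1, 0.31 for Bax, 0.12 for Bak1, -0.96 for Bcl2 and -0.64 for Bbc3, each moved by over 1.5 times with its direction and call kept. In KO cells Mcl1 had 0.42, Bax 0.43, Bak1 0.10, Bcl2 -0.98 and Bbc3 -0.36, and Bbc3 was then called lower (edgeR FDR 1.79e-05). Bcl2l1 had 3.58, Bcl2a1b 4.52, Bcl2a1d 4.51, Bcl2l11 2.15 and Pmaip1 2.20 in WT cells.

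Reads of the human Jurkat cells may be among these counts, and how they were handled is unstated in the labels and processing notes. Of 30 T-lineage genes, 27 were in the table and 25 were tested, and their summed level was 301 to 309 CPM in untreated WT libraries and 348 to 389.8 CPM after 4 h of Jurkat cells, and 309.5 to 329 and 323 to 330.0 CPM in the same KO groups. None of the 27 was at 0 in any of those groups. The 12 of them under 1 CPM in untreated cells summed to 3.07 ± 0.066 CPM in untreated WT cells, 40.6 ± 0.946 after 30 min and 105 ± 16.4 after 4 h of Jurkat cells, and at most 4.34 in libraries without Jurkat cells. The KO sums were 25.5 ± 5.67 CPM after 30 min and 71.7 ± 9.61 after 4 h. The part of human reads in the changes of the 10 genes was not tested.

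Jurkat cells and OVA were also compared directly, with the genotypes averaged. At 4 h, 8 of the 10 genes were higher with Jurkat cells and Bcl2 and Bbc3 lower, against 82.6% of all genes called. The log2 differences were 3.60 ± 0.10 for Bcl2a1d, 3.46 ± 0.092 for Bcl2a1b, 3.41 ± 0.064 for Bcl2l1, 2.53 ± 0.043 for Bcl2l11 and 2.14 ± 0.054 for Pmaip1. With the libraries of the genotypes pooled, 9 of 10 genes had no overlapping libraries (65.6% of all genes). At 30 min, 4 genes were higher with Jurkat cells (Bcl2l1, Bcl2a1b, Bcl2a1d and Pmaip1) and 3 lower (Mcl1, Bcl2l11 and Bbc3), against 29.9%. With the libraries of the genotypes pooled, libraries overlapped for all 7. Within each genotype, those of Bcl2l1 and Pmaip1 did not overlap, while those of the other called genes overlapped in WT cells, KO cells or both. Of the 7 called genes, Bcl2l1 (0.34 ± 0.068), Pmaip1 (0.25 ± 0.054) and Mcl1 (-0.10 ± 0.026) kept their calls whichever single library was left out. Without KO Jurkat 30 min replicate 1, Bcl2a1b was at 0.18 (edgeR FDR 0.0657) and Bcl2a1d at 0.13 (FDR 0.243). Bcl2a1d (0.33) also lost its call without KO OVA 30 min replicate 1 or 3, WT Jurkat 30 min replicate 1 or 2, or any 1 of the 3 WT OVA 30 min libraries (FDR up to 0.109). Bbc3 (-0.13) lost it without KO Jurkat 30 min replicate 1 or 2, KO OVA 30 min replicate 1 or 3, WT Jurkat 30 min replicate 1, or WT OVA 30 min replicate 2 or 3 (FDR up to 0.126). Bcl2l11 (-0.14) lost it without KO Jurkat 30 min replicate 2, KO OVA 30 min replicate 2 or WT Jurkat 30 min replicate 1 (FDR up to 0.0783).

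From 30 min to 4 h of Jurkat cells, 8 genes rose and Bcl2 fell in WT cells, against 78.6% of all genes called, and 9 rose and Bcl2 fell in KO cells, against 77.1%. Bcl2a1d rose by 4.77 ± 0.15 in WT and 4.06 ± 0.15 in KO cells over that interval. Bbc3 was called higher in KO cells (0.24 ± 0.064) and was at -0.08 ± 0.065, not called, in WT cells. With scaling to total counts its KO value turned to -0.09 (edgeR FDR 0.219). From 30 min to 4 h of OVA, 6 genes rose and Bcl2l11 fell in WT cells, against 29.7%, and 3 rose and Bcl2l11 fell in KO cells, against 12.8%. Bax rose over that interval by 0.29 ± 0.045 in WT and 0.28 ± 0.046 in KO cells. Among the WT calls with OVA, Bak1 (0.12) was lost without WT OVA 30 min replicate 1 or 2 or WT OVA 4 h replicate 1 or 2 (edgeR FDR up to 0.130), Bcl2l1 (0.28) without WT OVA 30 min replicate 2 or 3 or WT OVA 4 h replicate 2 (up to 0.134), and Pmaip1 (0.26) without WT OVA 30 min replicate 3 or WT OVA 4 h replicate 1 (up to 0.0944). The KO fall of Bcl2l11 (-0.23) was lost without KO OVA 30 min replicate 2 or KO OVA 4 h replicate 3 (up to 0.138).

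Differences between genotypes were small beside the largest responses to 4 h of Jurkat cells, but not beside every response to them. After 4 h of OVA, 4 of 10 genes were lower in KO cells, against 12.6% of all genes called and 6.35% called lower in that comparison. Pmaip1 was at 165, 143 and 136 CPM in WT and 108, 107 and 112 in KO libraries, a log2 difference of -0.44 ± 0.075 (edgeR FDR 0.000129). Bcl2a1b was at 63.2, 62.3 and 46.0 CPM in WT and 38.96, 36.5 and 39.7 in KO libraries, -0.57 ± 0.13 (FDR 0.00219). Neither gene's libraries overlapped between genotypes, and both kept the call whichever single library was left out. Bcl2a1d differed by -0.59 ± 0.15 (FDR 0.00745, and 0.0520 without WT OVA 4 h replicate 1), the summed Bcl2a1 copies by -0.61 (FDR 0.00203), and Mcl1 by -0.15 ± 0.036 (FDR 0.00392, kept without any 1 library). Pmaip1 was also lower in KO cells after 30 min of OVA (94.5, 95.4 and 99.6 against 135, 123 and 113 CPM, log2 -0.36 ± 0.077, FDR 0.00215), where 2 of 10 genes were lower, against 12.4% called and 6.13% called lower.

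Most calls in the other genotype comparisons were lost on leaving out 1 library. In untreated cells 1 of 10 genes was called and was higher, against 9.97% called and 6% called higher: Bcl2l1 at 17.3, 17.6 and 16.7 CPM in WT and 23.7, 21.4 and 18.2 in KO libraries, 0.30 ± 0.097 with an edgeR FDR of 0.0466. That call was lost on leaving out any of 20 of the 30 libraries, all 3 untreated WT libraries among them, and its value fell furthest without KO untreated replicate 1 (0.21, FDR 0.286). Untreated Pmaip1, at -0.22 ± 0.076, had no overlapping libraries and an FDR of 0.0665. After 30 min of Jurkat cells 4 of 10 genes were higher in KO cells, against 9.25% called and 5.58% called higher: Bcl2a1b (0.44), Bcl2a1d (0.54), Bcl2l1 (0.32) and Bcl2l11 (0.21). Without KO Jurkat 30 min replicate 1 all 4 lost their calls, with values of 0.16, 0.13, 0.20 and 0.12 and FDRs of 0.412, 0.563, 0.190 and 0.210. Leaving out WT Jurkat 30 min replicate 1 also ended all 4 calls, replicate 2 ended those of Bcl2a1b, Bcl2a1d and Bcl2l1, and replicate 3 those of Bcl2a1b and Bcl2a1d. A fit of the compared groups alone called none of the 4, with FDRs from 0.0640 (Bcl2l1) to 0.214 (Bcl2a1d).

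After 4 h of Jurkat cells 3 of 10 genes were called between genotypes, against 22.9%. Bbc3 was higher in KO cells (32.0, 33.0 and 34.4 against 29.9, 25.6 and 30.3 CPM, 0.21 ± 0.065, edgeR FDR 0.0190), a call lost without WT Jurkat 4 h replicate 2 (0.14, FDR 0.169) or KO Jurkat 4 h replicate 3 (FDR 0.0806). Pmaip1 was lower in KO cells (-0.21 ± 0.073, FDR 0.0392), and lost its call without any of 5 of the 6 libraries, KO Jurkat 4 h replicate 3 excepted (FDR up to 0.145), and with scaling to total counts (-0.13, FDR 0.201). Mcl1 was lower too (-0.11 ± 0.036, FDR 0.0243), and lost its call without KO Jurkat 4 h replicate 1 or 2 or WT Jurkat 4 h replicate 2 (FDR up to 0.124), with no filter on low counts (FDR 0.0610), in a fit of the compared groups alone (FDR 0.197) and with scaling to total counts (-0.03, FDR 0.528). At 30 min of OVA the Mcl1 difference of -0.13 ± 0.036 (FDR 0.0215) was lost without KO OVA 30 min replicate 2 or 3 or WT OVA 30 min replicate 1 or 2 (FDR up to 0.114), in a fit of the compared groups alone (FDR 0.0692) and with scaling to total counts (FDR 0.0521).

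**Figure D3:**
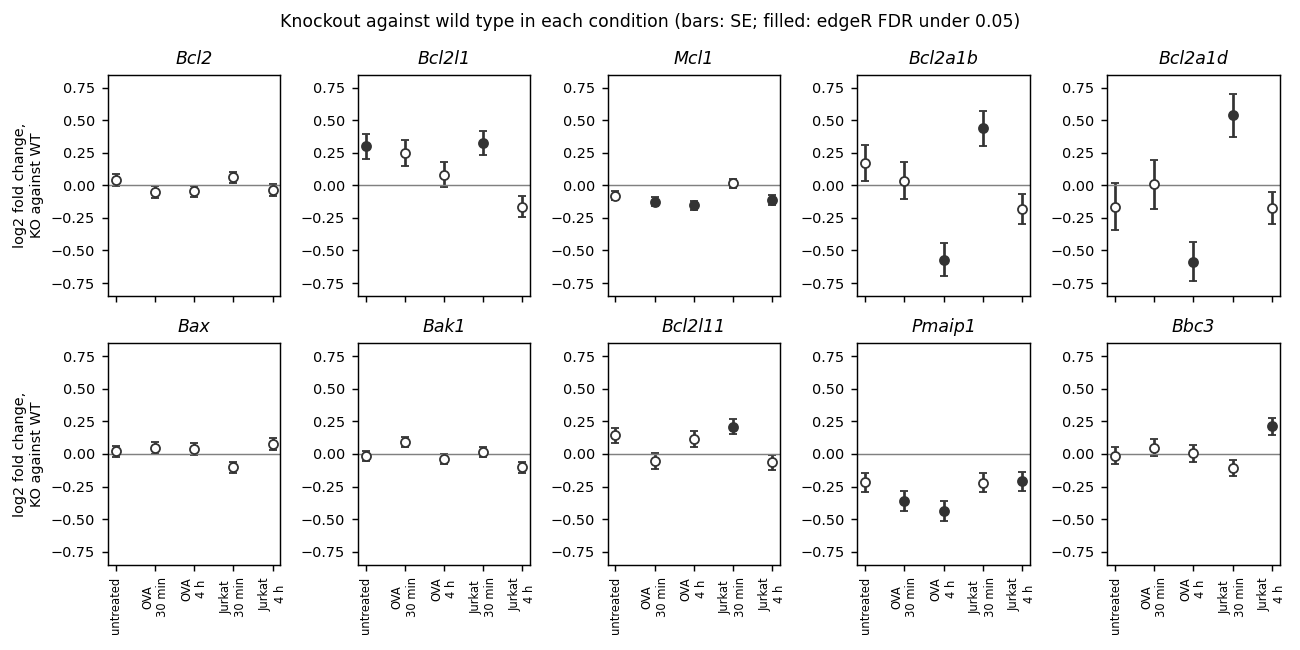
Log2 fold change of KO against WT cells for each gene (panels) in the 5 conditions on the horizontal axis; points are edgeR estimates, bars their standard error, and filled points have an FDR under 0.05. Pmaip1 lies below 0 in all 5 conditions, and Bcl2a1b and Bcl2a1d lie below 0 at 4 h of OVA (-0.57 and -0.59) and above 0 at 30 min of Jurkat cells (0.44 and 0.54).

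Markers of other cells differed between the genotypes as well. Of the 8 listed basophil or mast cell markers, 7 were tested, and all 7 were higher in KO cells in each of the 5 conditions, with a summed level of 22.3 to 28.6 CPM in untreated WT and 56.6 to 87.6 CPM in untreated KO libraries. Stromal markers summed to 586 ± 40.4 CPM in WT and 804 ± 90.9 in KO untreated cells, and plasmacytoid dendritic cell markers to 3180.1 ± 32.8 and 2788 ± 92.5. Monocyte or macrophage markers summed to 1864 ± 123 CPM in WT and 1698 ± 132 in KO untreated cells, and B cell markers to 21.5 ± 1.45 and 22.3 ± 0.554. Neutrophil markers, of cells known to express Bcl2a1 genes, summed to 148 ± 11.0 and 127 ± 17.5 CPM. At 4 h of OVA, where Bcl2a1b, Bcl2a1d, Pmaip1 and Mcl1 were lower in KO cells, neutrophil markers summed to 156 ± 6.45 CPM in WT and 126 ± 2.01 in KO cells, with 3 of 9 lower. Monocyte or macrophage markers summed to 2076 ± 107 and 1858 ± 11.3 CPM there, with 4 of 8 lower, plasmacytoid dendritic cell markers to 3177 ± 9.46 and 2770.3 ± 48.5, with 6 of 10 lower, and stromal markers to 629.7 ± 57.2 and 956 ± 48.4, with 4 of 8 higher. None of the listed markers was at 0 in these groups. Their part in the genotype differences of the 10 genes was not tested.

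Responses were compared between genotypes with the interaction term of the model, over 40 pairs of gene and treatment. The response of Bcl2l1 to 4 h of Jurkat cells was the 1 called, with a KO minus WT difference of -0.46 ± 0.12 on the log2 scale (edgeR FDR 0.0313), against 4.26% of all genes called in that comparison. It was lost with scaling to total counts (-0.40, FDR 0.0539) and without any of 8 single libraries: KO untreated replicate 1 (-0.37, FDR 0.114) or 2, WT untreated replicate 2 or 3, KO Jurkat 4 h replicate 2 or 3, or WT Jurkat 4 h replicate 2 or 3, with values of -0.37 to -0.48. Bcl2a1b with 4 h of OVA, -0.74 ± 0.19, had an FDR of 0.199, where 0.0405% of all genes were called. For the responses at 4 h of OVA and at 30 min of OVA and of Jurkat cells edgeR and DESeq2 called none of the 10 genes, and the unadjusted edgeR p was under 0.05 for 2, 1 and 1 of them. The share of all genes under that unadjusted p was not computed. Over all genes 0% were called at 30 min of OVA and 0.00675% at 30 min of Jurkat cells. The Bcl2a1b value passed without KO Jurkat 30 min replicate 1 (-0.74, FDR 0.0123) or WT OVA 4 h replicate 3 (-0.88, FDR 0.0388). Pmaip1 with 4 h of OVA was at -0.22 ± 0.11 (FDR 0.671).

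Per kilobase, the largest share among the 5 survival genes passed from Mcl1 to Bcl2a1b and Bcl2a1d after 4 h of Jurkat cells. Mcl1 itself rose, and in CPM not divided by length it stayed above each of them in WT cells, at 1312 beside 548 and 250. Other survival genes of the family, Bcl2a1a and Bcl2l2 among them, are not in these shares. The counts of single Bcl2a1 copies are uncertain. Per kilobase, Mcl1 made up 83.6% ± 0.745 of the summed level of the 5 survival genes in untreated WT cells and 27.3% ± 0.478 after 4 h of Jurkat cells. Bcl2a1b and Bcl2a1d together went from 12.02% ± 0.856 to 68.2% ± 0.475, with 26.5% ± 2.70 after 4 h of OVA. KO cells had 13.1% ± 0.996 untreated, 21.2% ± 0.648 after 4 h of OVA and 67.2% ± 0.310 after 4 h of Jurkat cells. Bcl2 went from 2.92% ± 0.137 to 0.372% ± 0.0214 and Bcl2l1 from 1.42% ± 0.0242 to 4.21% ± 0.118 in WT cells. Among the 3 BH3-only genes, Pmaip1 rose from 61.6% ± 1.76 to 81.0% ± 0.228 of the summed level in WT cells, Bcl2l11 from 11.1% ± 0.216 to 14.1% ± 0.390, and Bbc3 went from 27.3% ± 1.56 to 4.96% ± 0.602.

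**Figure D4:**
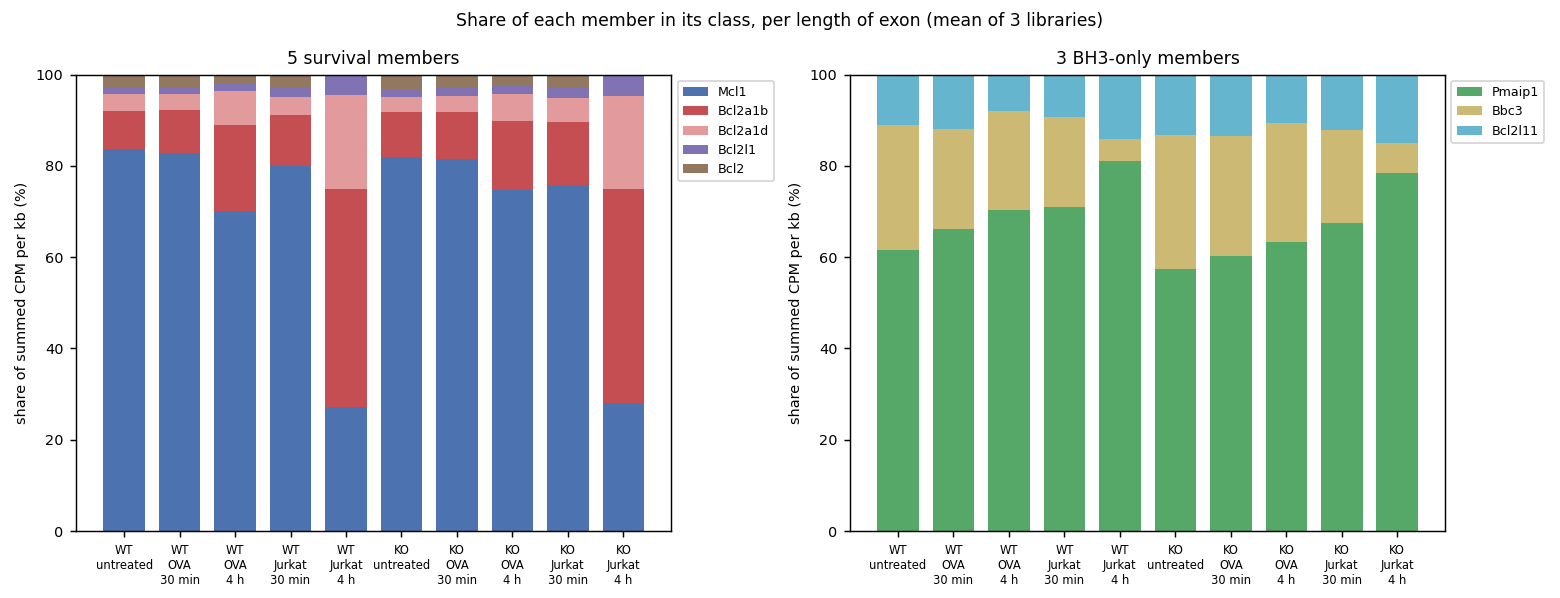
Share of each gene in the summed CPM per kilobase of its class (vertical axis, percent) in the 10 groups, for the 5 survival genes at left and the 3 BH3-only genes at right; each bar is the mean of 3 libraries. Mcl1 fills most of the survival bar in all groups except those with 4 h of Jurkat cells, where Bcl2a1b and Bcl2a1d together hold 68.2% in WT and 67.2% in KO cells.

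Ratios of a survival gene to a death gene within each library moved in both directions, and they are given as descriptions without a test. Mcl1 to Pmaip1 per kilobase was 6.12 ± 0.273 in untreated WT cells, 4.76 ± 0.294 after 4 h of OVA and 1.74 ± 0.0152 after 4 h of Jurkat cells, and 6.74 ± 0.154, 5.77 ± 0.0161 and 1.86 ± 0.0389 in KO cells. Bcl2 to Bcl2l11 fell from 1.19 ± 0.0354 to 0.137 ± 0.00957 in WT cells, and Bcl2 to Bax from 0.135 ± 0.0169 to 0.0556 ± 0.00251. In the other direction, Bcl2a1b to Bcl2l11 went from 3.40 ± 0.402 to 17.5 ± 0.593, with 11.3 ± 1.89 after 4 h of OVA, and Bcl2l1 to Bcl2l11 from 0.576 ± 0.0234 to 1.55 ± 0.104. Mcl1 to Bak1 was 5.12 ± 0.424 untreated and 6.18 ± 0.113 after 4 h of Jurkat cells. These are RNA levels, and protein was not analysed here.

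**Figure D5:**
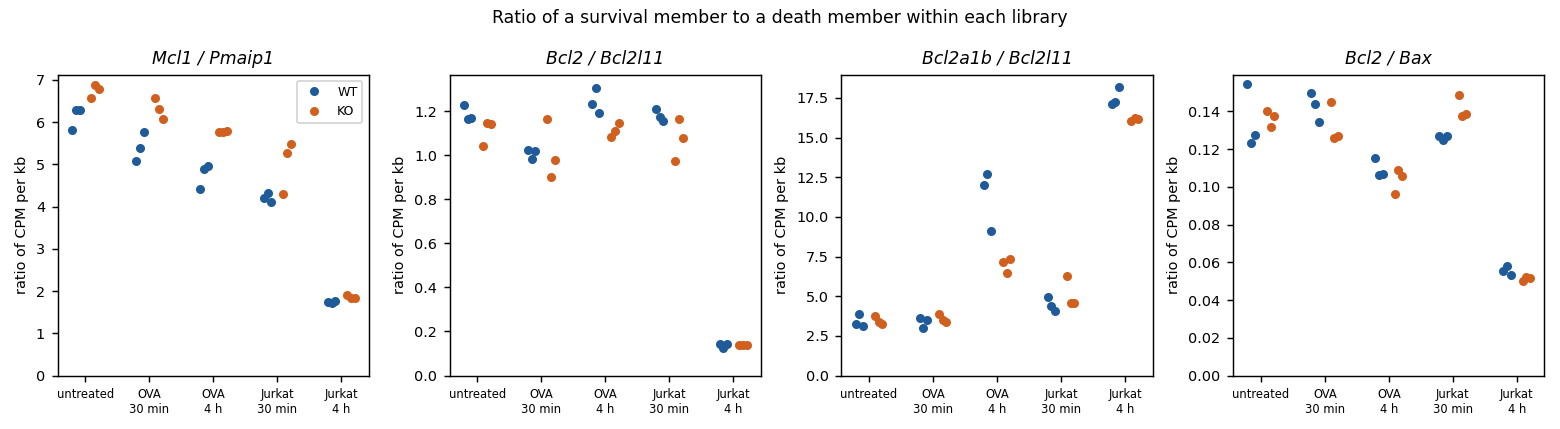
Ratio of CPM per kilobase of a survival gene to a death gene within each library (vertical axis), by treatment (horizontal axis), with WT in blue and KO in orange. After 4 h of Jurkat cells Mcl1 to Pmaip1, Bcl2 to Bcl2l11 and Bcl2 to Bax lie below all other groups, and Bcl2a1b to Bcl2l11 lies above them.

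The rest of the death pathway was read from lists of its other genes, against 79.5% of all genes called and 38.9% called higher in WT cells after 4 h of Jurkat cells. In that comparison 3 of 3 other survival genes of the family were higher (Bcl2a1a 5.22 ± 0.17, Bcl2a1c 4.76 ± 0.23 and Bcl2l2 0.13 ± 0.041). Bcl2a1a and Bcl2a1c are further Bcl2a1 copies, and the counts of single copies are uncertain. The small change of Bcl2l2 was not examined with scaling to total counts. Of 9 other death genes of the family 1 was higher, Bcl2l14 (2.49 ± 0.10), and 6 were lower, among them the BH3-only gene Bmf, which fell from 78.6 ± 2.34 to 11.4 ± 0.879 CPM (-2.79 ± 0.054), and Bnip3l (-1.56 ± 0.062). Downstream, 7 of 12 genes of the apoptosome and caspases were higher and 4 lower, with Casp2 (-1.60 ± 0.034), Casp6 (-2.63 ± 0.056) and Casp9 (-1.52 ± 0.055), initiator and effector caspases, among the falls. Of 8 caspase inhibitors and their partners 6 were higher and 1 lower, with Cflar, the gene of FLIP, at 3.19 ± 0.078, Birc3 at 2.36 ± 0.055 and Traf1 at 4.39 ± 0.15. The list medians were 4.76, -0.40, 0.43 and 1.27 on the log2 scale, beside -0.02 over all genes.

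Genes of connected pathways, both regulators and targets, were listed too. All 10 of 10 NF-kB subunits and targets were higher after 4 h of Jurkat cells in WT cells (median 2.75, beside -0.02 and 38.9% called higher over all genes), with Nfkbia at 3.62 ± 0.057, Tnfaip3 at 4.25 ± 0.072 and Icam1 at 3.69 ± 0.084. After 4 h of OVA 7 of the 10 were higher (median 0.82, beside -0.00196 and 11.9% called higher over all genes). In KO against WT cells at that time 7 of the 10 were lower (median -0.37, beside -0.00214 and 6.35% called lower over all genes). Of 11 genes listed under death receptors and ligands, 8 were higher and 3 lower with Jurkat cells, with the ligand gene Tnf at 7.10 ± 0.11. The p53 list, of a known regulator of Bax, Pmaip1 and Bbc3, was mixed, with 3 of 10 higher and 4 lower: Cdkn1a rose (4.47 ± 0.12), Mdm2 rose (1.26 ± 0.034) and Trp53inp1 fell (-1.86 ± 0.12). The list of stress genes had 7 of 10 higher and 2 lower, with Atf3 at 3.05 ± 0.087, Atf4 at 1.10 ± 0.037 and Hspa5 at 1.499 ± 0.041. Of 8 genes of MCL1 transcription and protein turnover 6 were higher and 2 lower, with Trib1 at 3.26 ± 0.073, the ligase gene March5 at 2.83 ± 0.067 and the deubiquitinase gene Usp9x at 0.89 ± 0.066.

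The genes most like each of the 10 were found by Pearson's r of log2 CPM over the 30 libraries among 10725 genes, as a description. Bcl2a1b was closest to Cxcl16 (0.998) and Bcl2a1d to Cd40 (0.998), a co-stimulatory receptor of mature dendritic cells, and without the 4 h Jurkat groups the same genes led over 24 libraries at 0.975 and 0.982. Bcl2l1 was closest to Pim1 (0.996), Bcl2l11 to Sertad2 (0.994), Pmaip1 to Srgn (0.994) and Mcl1 to Arf2 (0.991). Bcl2 was closest to Prps2 (0.987) and, over the 24 libraries, to Tlr3 (0.847). Bax was closest to Atox1 (0.982) and Bak1 to Csnk2b (0.984), while Bbc3 had no gene above Zfp598 (0.839) over the 30 libraries and none above Irf3 (0.8995) over the 24. Libraries of a group share its treatment, so the points behind these values are not independent.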

How the data were processed

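RNA-seq libraries (TruSeq RNA Library Prep Kit v2, per the labels' protocols) were made from RNA extracted with Trizol and a column with DNase. The authors deposited 1 table of raw read counts, 25611 rows for 30 libraries. STAR 2.5, Subread, featureCounts 1.5.0-p1 and DESeq2 and the build mm10 are named, without their roles, per the submitters' processing notes. The sources used here name no annotation, strand setting, read length or treatment of multi-mapping or human reads.

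Counts were tested with edgeR 4.0.16 in R 4.3.3. The filter filterByExpr left 14808 rows with 99.99% of counts, libraries were scaled by TMM, and a quasi-likelihood model of the 10 groups gave 23 contrasts, each adjusted over all genes by Benjamini and Hochberg with a threshold of 0.05. The standard error of a log2 fold change was its size over the square root of F. Totals of 9.73 M to 51.6 M counts set the precision, and no 2 libraries were identical. The model was tested on simulated data. CPM per kilobase used the merged exon length in GENCODE M21. Promoters came from RefSeq on GRCm38.p6, and motifs were searched on both strands in the 250 bases before each start. DESeq2 1.42.0 was an alternative, beside other scaling, filters, a replicate block, fits of the compared groups and leaving out each library. All 10 members were described. From each pathway list the text names up to 3 called genes, those of smallest p among genes with at least 5 CPM in the higher group in WT cells after 4 h of Jurkat cells. The members, lists and tests were chosen with earlier results of these data known.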

Additional observations from a re-analysis of the deposited data

Results flagged for a closer look

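The response of Bcl2l1 to 4 h of apoptotic Jurkat cells differed between the genotypes by the interaction term, with a KO minus WT log2 difference of -0.46 (edgeR quasi-likelihood test, FDR 0.0313). Both genotypes rose by over 10-fold, and the groups started from different untreated levels (17.2 CPM in WT and 21.1 in KO cells) and ended at 272 and 243 CPM. Untreated KO replicate 1 had the highest untreated level at 23.7 CPM, and without it the difference was -0.37 (FDR 0.114).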

How the results depend on the processing

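Of 230 pairs of gene and comparison, 104 were called. Of these, 86 kept their call in every setting of scaling, filter, block, samples in the fit or tool, 79 kept it without any 1 library, and 77 did both, while 24 of the 126 uncalled pairs gained a call in some setting. One value changed sign: Bbc3 from 30 min to 4 h of Jurkat cells in KO cells was 0.24 and turned to -0.0912 with scaling to total counts. Against untreated cells 42 of 80 pairs were called (41 to 44 in other settings, 40 to 44 without 1 library). Between genotypes 14 of 50 were called (13 to 17, and 9 to 15 without 1 library, the 9 without WT Jurkat 30 min replicate 1). For the interaction 1 of 40 was called, 0 with scaling to total counts and 0 to 2 without 1 library. Between Jurkat cells and OVA 17 of 20 were called (16 to 17, and 14 to 17 without 1 library), and between 4 h and 30 min 30 of 40 (30 to 32, and 28 to 32 without 1 library). The replicate numbers were not taken to pair the libraries in the main model, and whether they do is not settled. Of 135 same-numbered pairs, 11 had deviations correlated over 0.1 (r from -0.21 to 0.22). As a hint from the data and not the design, 18 of 30 libraries correlated best with their own number, where unrelated numbers would give about 10. With a replicate block over all groups the counts were 43, 17, 1, 17 and 31 in the same order, and within genotypes 44 against untreated cells, 1 for the interaction and 31 between times. Over all genes, a fit of the compared groups alone called 833 in place of 1578 after 30 min of OVA in WT cells, 246 in place of 558 in KO cells, 1460 in place of 2514 after 30 min of Jurkat cells in KO cells, 891 in place of 1370 between genotypes at 30 min of Jurkat cells and 337 in place of 631 for the interaction at 4 h of Jurkat cells. For the interaction at 4 h of OVA it was 6, against 11 with no filter, 10 with at least 5 CPM in 3 libraries, 12 with the replicate block within genotypes and 24 by DESeq2, and at 30 min of Jurkat cells 1, against 7, 0, 0 and 22. Depth was lowest in 1 library, KO OVA 30 min replicate 3, at 9.73 M counts.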
